A study of Mus musculus with 2 samples.

Results

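T cells and natural killer (NK) cells made up 50 of the 16689 cell barcodes kept from 2 droplet libraries of mouse heart cells, 11 in the library labelled CD40 KO and 39 in the WT library. The cells came from hearts 3 days after myocardial infarction (MI), from CD40 knockout (KO) mice and from wild type (WT) mice, with 1 library per genotype. Tissue of the infarct and its border was sorted for cells with CD45, CD11b and CD64 on their surface, a gate meant for macrophages, and both genotypes share the gate and the infarction. The sources used here do not give the knockout allele, the age of the mice or how many mice were behind a library. A barcode (the tag of 1 droplet, usually 1 cell) was kept with at least 500 UMIs (unique molecular identifiers, counted molecules), 300 genes or more and no more than 10% of its UMIs from mitochondrial genes. It was taken as a T or NK cell with at least 3 UMIs over Cd3d, Cd3e, Cd3g, Trbc2, Nkg7 and Ncr1, at least 2 of these genes detected, and under 0.1% of its UMIs from the macrophage genes C1qa, C1qb and C1qc. The cells were therefore chosen by the measured UMIs of these 9 genes, whose levels are given as a description only.

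T cells recognise peptides held by MHC molecules through a T cell receptor whose chains sit in the membrane with the CD3 proteins, which carry the signal into the cell. NK cells lack that receptor and kill through activating and inhibitory receptors of the killer lectin-like family, with granzymes and perforin shared with cytotoxic T cells. Both kinds of lymphocyte enter the infarcted heart in small numbers beside the far more abundant macrophages, and CD40 ligand on activated T cells is the partner of CD40 on macrophages and dendritic cells.

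The start regions of the selecting genes are shown because their transcripts split the cells into groups that did not overlap in CD3 and Ncr1. They are RefSeq sequences of the mouse build GRCm38.p6, 5′ to 3′ on the strand of the gene, from 250 bases before to 50 bases after each annotated start, and 5 of the 6 genes had one. Ncr1 had 2 entries, of which only the first is shown and searched for motifs. Cd3d (chr9:44981536-44981835, plus strand) and Cd3g (chr9:44980382-44980681, minus strand) are transcribed away from each other, with starts 1355 bases apart. Cd3e (chr9:45009562-45009861, minus strand) starts 27825 bases from Cd3d. Nkg7 (chr7:43436888-43437187, plus strand) and Ncr1 (chr7:4337465-4337764, plus strand) lie on another chromosome. Capitals mark the letters GGAAG, the core bound by ETS factors, and TGTGGT, the core bound by RUNX factors, on either strand, so that CTTCC and ACCACA are the same motifs read on the other strand.
Cd3d: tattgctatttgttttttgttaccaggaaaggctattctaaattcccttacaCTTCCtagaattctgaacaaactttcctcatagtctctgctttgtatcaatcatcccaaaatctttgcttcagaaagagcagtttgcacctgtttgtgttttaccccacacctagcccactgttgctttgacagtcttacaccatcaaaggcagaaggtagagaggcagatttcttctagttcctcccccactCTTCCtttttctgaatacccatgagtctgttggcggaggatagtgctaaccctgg
Cd3g: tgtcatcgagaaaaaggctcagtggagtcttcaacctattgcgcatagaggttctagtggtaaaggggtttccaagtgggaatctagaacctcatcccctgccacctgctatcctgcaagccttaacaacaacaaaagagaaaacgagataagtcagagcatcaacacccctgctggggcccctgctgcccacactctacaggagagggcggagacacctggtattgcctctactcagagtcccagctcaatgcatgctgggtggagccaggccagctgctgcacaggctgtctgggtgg
Cd3e: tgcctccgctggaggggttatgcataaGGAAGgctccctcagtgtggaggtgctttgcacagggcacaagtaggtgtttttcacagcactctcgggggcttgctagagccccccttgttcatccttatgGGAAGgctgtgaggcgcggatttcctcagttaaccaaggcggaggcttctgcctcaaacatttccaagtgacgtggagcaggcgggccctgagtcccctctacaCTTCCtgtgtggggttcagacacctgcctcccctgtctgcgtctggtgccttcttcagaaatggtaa
Nkg7: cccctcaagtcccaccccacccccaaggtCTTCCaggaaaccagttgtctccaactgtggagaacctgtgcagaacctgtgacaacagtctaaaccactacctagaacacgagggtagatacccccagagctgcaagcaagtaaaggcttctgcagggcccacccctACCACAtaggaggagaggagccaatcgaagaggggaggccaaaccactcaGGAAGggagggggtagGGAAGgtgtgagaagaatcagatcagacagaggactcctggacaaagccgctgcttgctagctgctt
Ncr1: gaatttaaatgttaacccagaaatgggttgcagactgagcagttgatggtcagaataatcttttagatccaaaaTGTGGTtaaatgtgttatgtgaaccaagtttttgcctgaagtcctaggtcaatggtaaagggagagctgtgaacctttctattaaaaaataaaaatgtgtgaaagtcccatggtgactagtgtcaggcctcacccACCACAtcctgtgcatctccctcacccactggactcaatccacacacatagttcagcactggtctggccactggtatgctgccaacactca
Cd3d held 2 ETS cores, Cd3e 3 and Nkg7 3, whereas Ncr1 held 2 RUNX cores and no ETS core. Nkg7 held 1 RUNX core. No 2 motifs overlapped in these windows. Among all 32851 promoters of the same length 71.4% held an ETS core and 16.8% a RUNX core, so the ETS match is the common case. A match describes the letters and not a bound site, and the absence of both motifs in the Cd3g window says nothing about the factors.

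The deposited library labelled CD40 KO had 8146 barcodes and 90057108 UMIs, and the WT library 10624 and 139343516. The shallowest deposited barcode had 1618 UMIs in the library labelled CD40 KO and 500 in WT, and the numbers kept were 7930 and 8759. The median depth of the other kept barcodes was 5505 UMIs in the library labelled CD40 KO and 11574 in WT. The 2 libraries shared 23 barcode sequences, 0.282% of those in the library labelled CD40 KO, and no T or NK cell was among them. Cd40, the targeted gene, does not check the labels, since 3′ tags can come from outside a deleted part: its level among the other barcodes was 18.3 CPM (UMIs per 1000000 UMIs) in the library labelled CD40 KO, against 17.8 CPM in WT. Having 1 library per genotype means that no replicate checks a difference between genotypes and none was tested, and the 95% exact intervals below cover counting error only.

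T and NK cells were rarer in the library labelled CD40 KO. They made up 0.139% of kept barcodes (exact binomial interval 0.0693% to 0.248%) in the library labelled CD40 KO and 0.445% (0.317% to 0.608%) in WT, a ratio of 0.312 (0.144 to 0.620). Set against the number of C1q-rich barcodes, those with at least 0.1% of UMIs from the C1q genes, they came to 0.166% in the library labelled CD40 KO and 0.627% in WT. The share is set by a gate that selects against lymphocytes, so it measures how many passed the sort and not how many were in the heart.

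The members sat clear of most of the limits of the rule. None had 3 UMIs of the selecting genes, 4 WT cells had 4, and no kept barcode of low C1q had 2 UMIs of 2 of them. The members held a median of 14 such UMIs in the library labelled CD40 KO and 16 in WT. A further 1 barcode in the library labelled CD40 KO and 3 in WT had 3 or more UMIs of Nkg7 but of no other selecting gene and were left out. The highest C1q share in a member was 0.0808% in the library labelled CD40 KO and 0.0748% in WT, while the lowest in a WT barcode that met the marker condition but not the C1q limit was 0.159%. There were 0 such barcodes in the library labelled CD40 KO and 8 in WT, with 11200 to 66156 UMIs, and the doublet caller Scrublet marked 6 of the 8.

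The sorting markers were nearly absent from the members apart from CD45. Ptprc, which encodes CD45, was detected in 45 of the 50, at 2457 CPM in the library labelled CD40 KO and 1342 CPM in WT. In the other barcodes Ptprc had 498 CPM in the library labelled CD40 KO and 496 CPM in WT. Itgam, which encodes CD11b, had 27 UMIs in 4 members, and Fcgr1, which encodes CD64, had 26 UMIs in 3 members. Most of those UMIs were in 2 barcodes, and without them Itgam had 2 UMIs and Fcgr1 had 1 UMI over 48 members. Among the other barcodes 58.1% had an Itgam UMI and 66.5% an Fcgr1 UMI. Transcripts do not measure surface protein, so how these cells entered the gate was not tested.

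Those 2 barcodes carried macrophage transcripts and stood apart in depth. They were picked after their values were seen, as the members with at least 1% of UMIs from a list of 16 monocyte and macrophage markers. The barcode in the library labelled CD40 KO had 58488 UMIs, 43.1% of all member UMIs of that library, with 607 macrophage list UMIs (1.04%) and 165 UMIs of the neutrophil gene S100a8. The WT barcode had 43508 UMIs, 17.2% of its library's member UMIs, with 904 macrophage list UMIs (2.08%), among them 311 of Spp1, which encodes osteopontin. Scrublet marked the WT barcode and no other member. The other 48 members, 10 in the library labelled CD40 KO and 38 in WT, had at most 0.460% of UMIs from the list, with a median of 6 UMIs per barcode. These 48 had a median depth of 7233 UMIs and a highest of 15904 in the library labelled CD40 KO, against 4467 and 23399 UMIs in WT. Levels are given below without the 2 barcodes where they move a value.

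**Figure D1:**
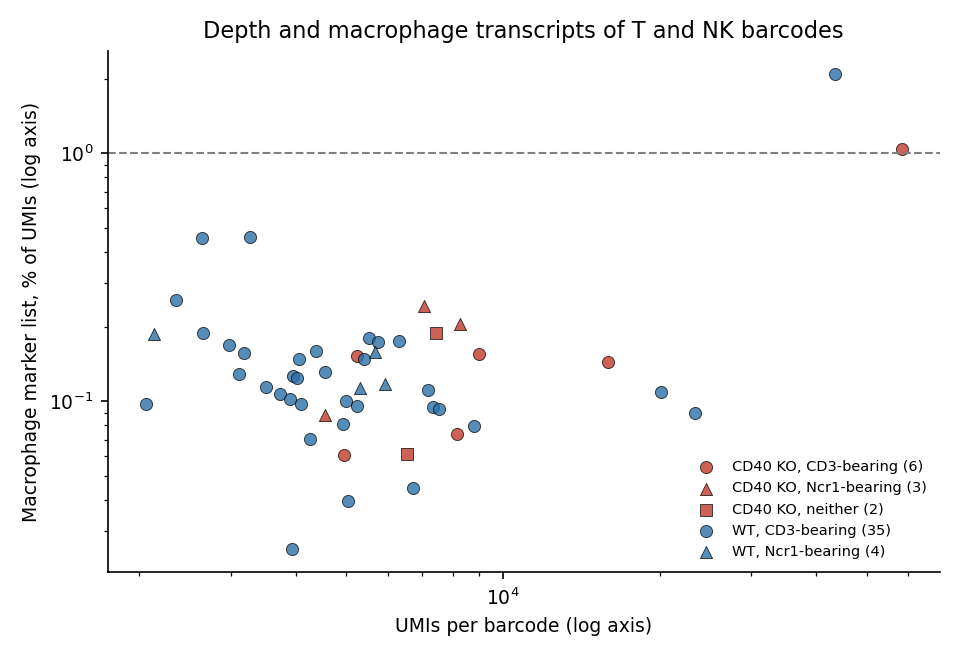
Each point is a T or NK cell, with its total UMIs on the horizontal log axis and the percent of its UMIs from the 16 monocyte and macrophage markers on the vertical log axis, for the library labelled CD40 KO and for WT. The dashed line is at 1%, and the barcodes of 58488 and 43508 UMIs are the only ones above it.

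The members split by detected transcripts into CD3-bearing and Ncr1-bearing cells with no cell in both classes. At least 1 of the CD3 genes was detected in 41 of 50 members, 6 of 11 in the library labelled CD40 KO (54.5%, interval 23.4% to 83.3%) and 35 of 39 in WT (89.7%). Cd3d was detected in all 41, Cd3g in 35, Cd3e in 31 and all 3 in 28. The class rests on Cd3d alone in 3 cells, 1 labelled CD40 KO and 2 WT. The cell labelled CD40 KO, of 8158 UMIs, had 6 UMIs of Cd3d, 4 of Trbc1 and 2 of Trdc, and also 15 of Fcer1g, 8 of Tyrobp, 4 of Klrd1 and 2 of Klrb1c, with none of Trac, Themis, Bcl11b or CD8. A WT cell of 5401 UMIs had 1 UMI of Cd3d, 2 of Trbc2, 1 of Trbc1 and 3 of Camk4. It also had 3 of Tyrobp, 2 of Fcer1g and 2 of Klrd1, with none of Trac, Themis, Bcl11b, CD8 or Klrb1c. The markers of both cells are thus mixed and do not settle whether they are T cells. Ncr1, the activating NK receptor NKp46, was detected in 7 members, 3 of 11 in the library labelled CD40 KO and 4 of 39 in WT, with 1 to 3 UMIs each. No member had UMIs of both CD3 and Ncr1, a share that a count of 0 limits to 6.0%. The remaining 2 members, both in the library labelled CD40 KO, had neither. Nkg7, a granule membrane protein of cytotoxic lymphocytes, and Trbc2, a constant region of the T cell receptor beta chain, were each detected in 42 members. Detection depends on depth: with each barcode thinned to 1000 UMIs, CD3 was found in 36.4% of the members in the library labelled CD40 KO and 71.8% in WT.

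**Figure D2:**
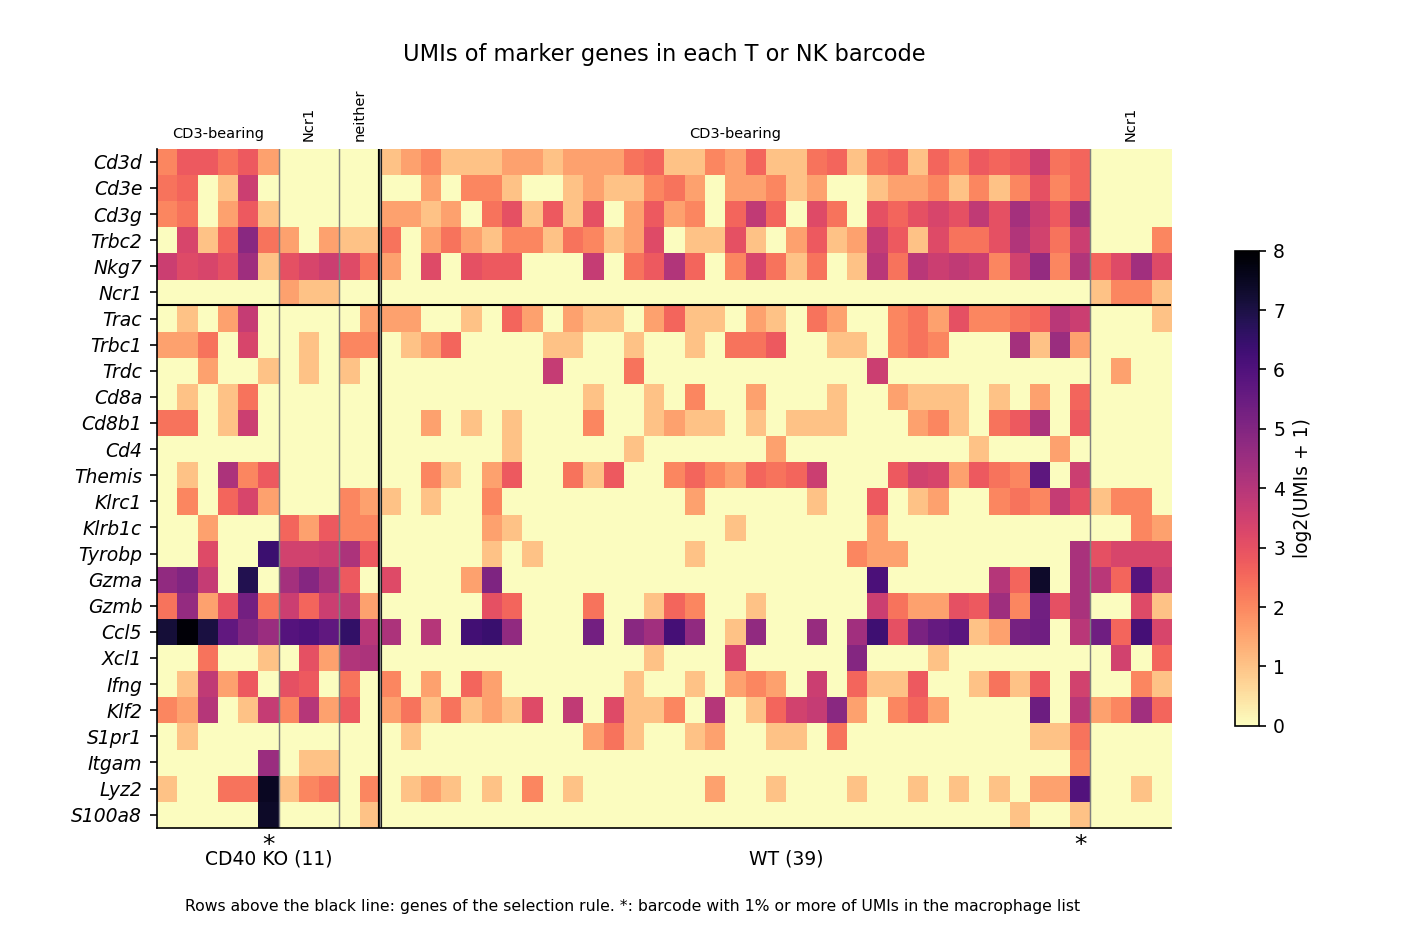
Each column is 1 of the 50 T and NK cells and each row a gene, with shade giving log2(UMIs + 1), and the 11 cells of the library labelled CD40 KO stand left of the 39 WT cells. Columns are ordered by class within each library, which places the 41 CD3-bearing cells and the 7 Ncr1-bearing cells in separate blocks. The asterisks mark the 2 cells that carry macrophage transcripts.

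Several genes the rule did not use differed between the classes. Trac or Trbc1, the other constant regions of the alpha-beta receptor, had a UMI in 37 of 41 CD3-bearing cells, 2 of 7 Ncr1-bearing cells and both cells of neither class. Trac had 108 UMIs in 31 members, 43.7% of all Trac UMIs of both libraries. Themis, a thymocyte selection protein that sets T cell receptor signalling, was detected in 28 of 41 CD3-bearing cells and 0 of 7 Ncr1-bearing cells. Bcl11b, a transcription factor that keeps T cell identity, was detected in 24 of 41 and 0 of 7, and Camk4, a calcium-dependent kinase, in 33 of 41 and 0 of 7. Themis, Bcl11b and Camk4 were thus seen in CD3-bearing cells and not in the Ncr1-bearing ones.

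NK receptor transcripts ran the other way. The NK receptor list summed to 1231 CPM in the 39 CD3-bearing cells outside the 2 macrophage-carrying barcodes and to 6629 CPM in the 7 Ncr1-bearing cells, a ratio of 0.186 (0.156 to 0.220). Tyrobp, the adaptor DAP12 of activating receptors, was in 9 of 41 CD3-bearing cells and 7 of 7 Ncr1-bearing cells. Klrb1c, which encodes NK1.1, was in 5 of 41 and 5 of 7. Klrc1, which encodes the inhibitory receptor NKG2A, did not separate the classes, with 17 of 41 and 3 of 7. The list of other receptor complex genes (Cd247, which NK cells also use, and Trac, Trbc1 and Trdc among those measured) summed to 1363 CPM in CD3-bearing cells and 385 CPM in Ncr1-bearing cells, a ratio of 3.54 (2.11 to 6.39). Cma1, a mast cell protease gene, had 5 UMIs in 3 of 7 Ncr1-bearing cells and none in the 41 CD3-bearing cells. The comparison is of 7 cells, each of which shares its library with the rest.

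The 2 members with neither CD3 nor Ncr1 held Nkg7 with 8 and 4 UMIs and Trbc2 with 1 UMI each. Trbc1 had 3 UMIs in each and Klrb1c 3 UMIs in each. Ccl5 had 92 and 14 UMIs, Xcl1 16 and 17 and Tyrobp 17 and 6. They carried transcripts of both groups, and no class is given to them.

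CD8 was the coreceptor most often detected in the CD3-bearing cells. Cd8a or Cd8b1 was detected in 24 of 41 CD3-bearing cells, 4 of 6 in the library labelled CD40 KO and 20 of 35 in WT, and in none of the 9 other members. Cd4, the coreceptor of helper T cells, had 7 UMIs in 5 WT cells, of which 1 also had CD8, and 13 CD3-bearing cells had neither. Foxp3, the factor of regulatory T cells, had 0 UMIs, which limits the share of members with a UMI to 6.0%. Cd40lg, the ligand of CD40, had 2 UMIs in 2 members, and Cd40 itself had 0 UMIs.

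Signalling genes below the T cell receptor set the members apart from the rest of the sorted cells. Skap1, an adaptor that links the receptor to integrins, had 283 UMIs in 47 of 50 members, at 728 CPM against 0.635 CPM in the other barcodes, and 66.4% of all Skap1 UMIs of both libraries lay in the 50 members. It was detected in 94.0% of members and 0.428% of C1q-rich barcodes. Of the 16639 other barcodes 12858 were C1q-rich, and none met the rule, so these levels describe the choice of cells and are no test.

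The gene lists show which functions the members carried. Of 8115 genes at a mean of at least 10 CPM, leaving out the 9 of the rule, 1650 (20.3%) were at least 2-fold higher in the members than in the other barcodes and 1191 (14.7%) at least 2-fold lower, with a median log2 ratio of 0.16. Without the 2 barcodes that carried macrophage transcripts the shares were 23.9% and 20.5%. At 10 CPM the members hold about 4 UMIs in all, so single low genes are imprecise. Of 17 measured T cell receptor signalling genes 16 were higher and 0 lower, with a median log2 ratio of 8.22, and the exception was Lcp2, an adaptor also found in myeloid cells. All 7 measured coreceptors and costimulatory genes were higher (median 7.27), as were 12 of 14 lymphocyte transcription factors (median 6.43). Of 18 NK receptor genes 14 were higher (median 6.70), and the 3 lower were Fcgr3, Tyrobp and Fcer1g, an Fc receptor and adaptors that macrophages also express. In the 7231 genes measured within both libraries, 1399 were higher in the members of the library labelled CD40 KO and 1465 in those of WT, with 877 shared, 62.7% and 59.9% of the lists.

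Markers of macrophages, fibroblasts and neutrophils were low. Of 16 monocyte and macrophage markers 15 were at least 2-fold lower in the members and none higher, with a median log2 ratio of −2.59, and without the 2 barcodes named above all 16 were lower (median −4.75). All 6 measured fibroblast markers were lower (median −4.35), and 7 of 8 neutrophil markers were lower. Summed over the list, macrophage markers in the members without the 2 barcodes reached 1427 CPM in the library labelled CD40 KO and 1234 CPM in WT, against 23186 and 34735 CPM in the other barcodes. Lyz2, the lysozyme of myeloid cells, was detected in 48.0% of members and 99.1% of C1q-rich barcodes. The part of the remaining myeloid UMIs in other results was not tested.

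Other lists were mixed. Of 4 measured dendritic cell markers 3 MHC class II genes were lower and Ccr7, which naive and memory T cells also use, was higher. Of 4 measured endothelial markers 3 were higher, but 13 of the 14 UMIs of Cdh5, the endothelial cadherin, lay in 1 WT barcode, and without the 2 macrophage-carrying barcodes only Pecam1 of 3 measured stayed higher, at 26 UMIs. Pecam1 encodes CD31, which leukocytes also carry. Of 14 interferon response genes 4 were higher, among them Gbp2, Gbp4 and Iigp1, 1 was lower and the median log2 ratio was −0.12. Of 16 immediate early genes, which tissue dissociation can induce, 0 were higher and 5 lower, with a median of −0.64. Of 11 genes of CD40 signalling 2 were higher (Traf1 and Birc2) and 0 lower, with a median of 0.56, near the share over all genes.

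**Figure D3:**
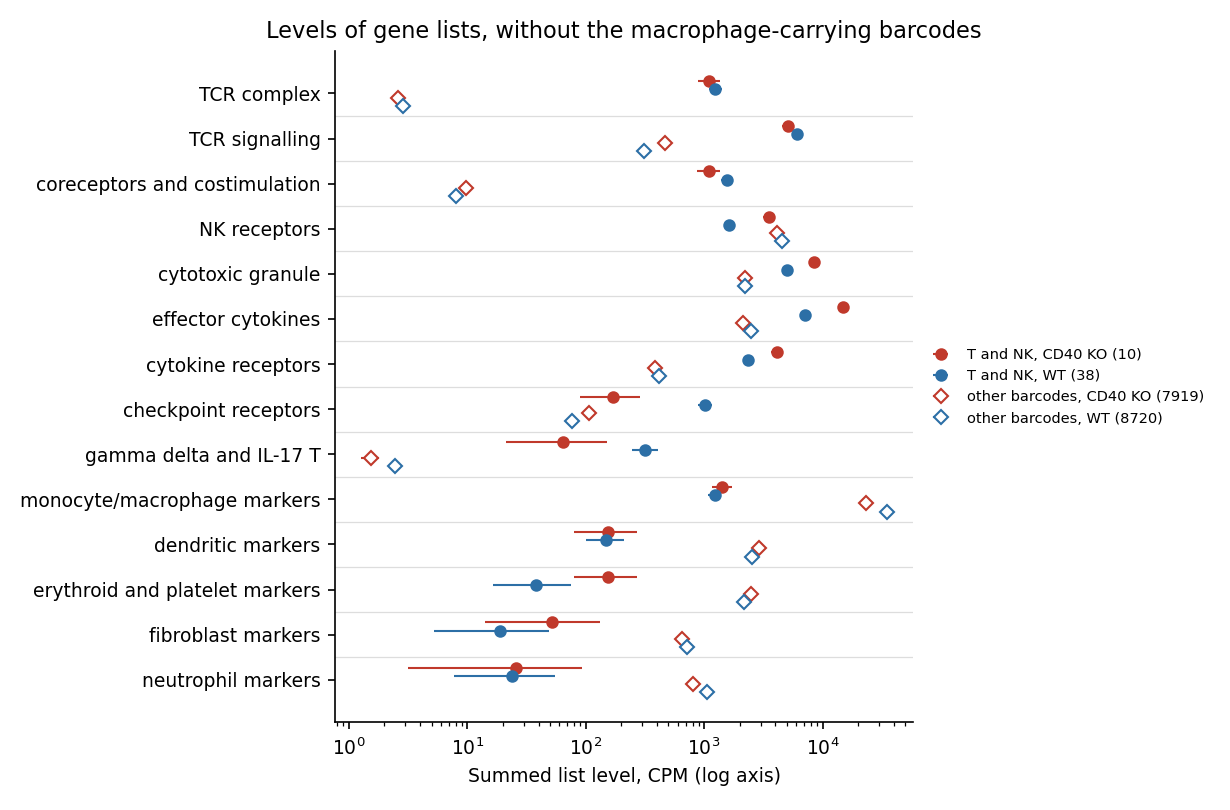
Summed CPM of 14 gene lists on a log axis, for T and NK cells without the 2 macrophage-carrying barcodes (10 labelled CD40 KO and 38 WT) and for the other kept barcodes (7919 and 8720), with bars giving exact 95% Poisson intervals. T cell receptor complex genes reached 1103 and 1244 CPM in the T and NK cells against 2.58 and 2.86 CPM in the other barcodes, while macrophage markers lay the other way.

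Granule genes of cytotoxic cells were abundant in part of the members. Of 12 measured granule genes 10 were at least 2-fold higher in the members, with a median log2 ratio of 8.55, and 1, the lysosomal Lamp1, was lower. Gzma (chr13:113093825-113100981 in GRCm38, minus strand), which encodes granzyme A, had 656 UMIs in 20 members, at 1687 CPM against 1.28 CPM in the other barcodes. Its UMIs were concentrated, with 66.6% in 5 cells. Gzmb (chr14:56258838-56262260, minus strand), which encodes granzyme B, had 276 UMIs in 31 members, and 62.0% of members but 0.179% of C1q-rich barcodes had a UMI. In the same 39 CD3-bearing cells the granule list summed to 5512 CPM, against 8248 CPM in the Ncr1-bearing cells, a ratio of 0.668 (0.591 to 0.758). Gzma was in 12 of 41 CD3-bearing cells and 7 of 7 Ncr1-bearing cells.

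Ccl5, a chemokine of activated T and NK cells that draws leukocytes, had more UMIs in the members than any other gene of the effector cytokine list. Ccl5 (chr11:83525778-83530518, minus strand) had 1804 UMIs in 39 of 50 members, at 4639 CPM, and 60.1 CPM in the other barcodes, and the members held 11.8% of its UMIs in both libraries. A Ccl5 UMI was found in 78.0% of members and 24.0% of C1q-rich barcodes, and after thinning to 1000 UMIs in 66.0% and 5.52%. Ifng, which encodes interferon gamma, had 110 UMIs in 28 members, and 71.9% of its UMIs in both libraries lay there. Xcl1, a chemokine that draws XCR1-positive dendritic cells, had 103 UMIs in 12 members, and 74.6% of its UMIs lay in members. Ccl4, which macrophages also make, did not stand apart, with a log2 ratio of −0.03. Of 11 measured effector cytokine genes 5 were higher (Ifng, Csf2, Ltb, Xcl1 and Ccl5) and 3 lower (Tnf, Il10 and Csf1), with a median log2 ratio of 0.55.

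Receptors for cytokines that act on T and NK cells were also high. Of 10 measured cytokine receptor genes 9 were higher, with a median log2 ratio of 3.20. Il2rb, the shared beta chain of the IL-2 and IL-15 receptors, had 179 UMIs in 37 members, in 28 of 41 CD3-bearing cells and 7 of 7 Ncr1-bearing cells. Tbx21, the T-bet factor that drives interferon gamma expression, and Il18rap, a chain of the IL-18 receptor, are described with the genotypes below. Among 16 homing and retention genes 9 were higher, among them Cxcr3, Cxcr6 and Cd69, and Cx3cr1 was lower.

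The 41 CD3-bearing cells differed most visibly in Ccl5, and a split by Ccl5, chosen after the values were seen and not tested, describes them. Ccl5 had 5 or more UMIs in 27 cells, 6 in the library labelled CD40 KO and 21 in WT, 1 to 4 UMIs in 3 WT cells and 0 in 11 WT cells. The 27 include both macrophage-carrying barcodes. In the 27 cells Nkg7 was detected in 27, Gzmb in 21, CD8 in 20 and Ifng in 19. In the 11 cells without Ccl5 these counts were 3, 1, 3 and 1, and Gzma and Prf1, the pore-forming perforin, were in 0 of 11.

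Genes of recirculating T cells ran against the cytotoxic genes in this split. Klf2, a factor that drives exit from tissue, had 656 CPM in the 25 cells with Ccl5 outside the macrophage-carrying barcodes and 1527 CPM in the 11 without. A single deep cell moved each level, to 438 CPM and 2447 CPM when the deepest cell of each group was left out. S1pr1, the receptor through which T cells leave tissue, was in 6 of 27 and 7 of 11, and Lef1, a factor of naive and memory T cells, in 11 of 27 and 9 of 11. Klf2 is not particular to lymphocytes here, as 75.6% of C1q-rich barcodes also had a UMI. The 25 cells had a median depth of 5034 UMIs and the 11 cells 3926 UMIs, so the group with the higher Klf2 level was the shallower one.

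Single cells held the transcripts of rarer T cell types. Trdc, the constant region of the delta chain, had 34 UMIs in 8 members, all without Trac, and 4 or more UMIs in 3 WT CD3-bearing cells. The cell with the most, of 3498 UMIs in all, had 12 UMIs of Trdc, 10 of Il23r, 7 of Il17a and 5 of Cd163l1, the genes of IL-17-producing gamma-delta T cells. A WT cell of 23399 UMIs held 46 UMIs of the inhibitory receptor Ctla4, 23 of the costimulatory receptor Icos, 23 of Il2ra, 20 of Ikzf2, 21 of the growth factor Areg and 16 of Il10, with 2 UMIs of Cd4 and 0 of Foxp3 and Ccl5. These are genes also seen in regulatory T cells, and 46 of all 71 Ctla4 UMIs lay in that 1 cell. The WT cell of 5401 UMIs with 1 UMI of Cd3d held all 51 UMIs of Ccl1 with 30 UMIs of Xcl1 and 107 of Ccl4. The type 2 cytokines Il5 and Il13 had 0 UMIs in the members.

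Cell cycle transcripts were seen in few members. Summed genes of G2 and M phase, without the widely expressed Hmgb2, had 5 or more UMIs in 1 of 11 members in the library labelled CD40 KO and 4 of 39 in WT. The 1 cell, of 15904 UMIs, held 58 of the 63 such UMIs in the members of the library labelled CD40 KO, among them 12 of Top2a and 14 of Ube2c, and it held 96 UMIs of Hmgb2. Without the macrophage-carrying barcodes Hmgb2 had a log2 ratio of 1.10 between the library labelled CD40 KO and WT, and 0.03 without that cell. In WT the highest was 47 UMIs, in the barcode that carried macrophage transcripts, followed by 20.

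Between the libraries, the members labelled CD40 KO held more transcripts of cytotoxic granule genes and of the chemokine Ccl5 per UMI than the WT members, and fewer transcripts of some genes of T cell identity and costimulation. Without the 2 barcodes that carried macrophage transcripts, which leaves 10 and 38 cells, 1945 genes had at least 30 UMIs. Of these 164 (8.43%) were at least 2-fold higher in the library labelled CD40 KO and 204 (10.5%) lower, with a median log2 ratio of −0.03. With the 2 barcodes 2682 genes were measured, and 301 (11.2%) were higher and 239 (8.91%) lower. Within CD3-bearing cells alone, 5 against 34, 1588 genes were measured, and 151 (9.51%) were higher and 211 (13.3%) lower. The 5 include the cell of 8158 UMIs and the 34 include the cell of 5401 UMIs, whose markers do not settle whether they are T cells. Calls were by size alone, and the ranges over cells overlapped for each of the genes described here.

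The cytotoxic list summed to 8512 CPM in the library labelled CD40 KO and 5032 CPM in WT, a ratio of 1.69 (1.53 to 1.87), and within CD3-bearing cells the ratio was 2.0 (1.78 to 2.26). Of 7 measured granule genes 3 were at least 2-fold higher (Gzmb, Prf1 and Serpinb9) and 0 lower, with a median log2 ratio of 0.86. Per 10000 UMIs of a cell, Gzmb had a lowest of 2.45, a median of 10.7 and a highest of 45.9 in the library labelled CD40 KO, against 0, 0.842 and 27.8 in WT. Gzmb was thus detected in 10 of 10 cells labelled CD40 KO and 19 of 38 WT cells, with a log2 ratio of 1.22 (0.85 to 1.58). Gzma had a lowest of 0, a median of 31.5 and a highest of 72.3 per 10000 UMIs in the library labelled CD40 KO, against 0, 0 and 121 in WT, so the WT range enclosed the other. Its log2 ratio was 0.86 over all 48 cells and 1.46 (1.18 to 1.73) within CD3-bearing cells, where it was in 4 of 5 and 7 of 34. A WT cell of 20089 UMIs held 164 of the 383 WT UMIs of Gzma, and without it the log2 ratios were 1.52 (1.25 to 1.79) and 2.47 (2.14 to 2.81). Only a WT cell was left out there, which raises the ratios. A cell labelled CD40 KO, of 15904 UMIs, held 115 of that library's 255 Gzma UMIs. Its CD3-bearing cells had 183 Gzma and 75 Gzmb UMIs, of which this cell held 115 and 38. Leaving this cell out would lower the Gzma ratios, and their size without it was not computed.

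Ccl5 showed the same direction in sums and in single cells. Per 10000 UMIs it had a lowest of 18.8, a median of 109 and a highest of 453 in the library labelled CD40 KO, against 0, 39.6 and 274 in WT. Its log2 ratio was 1.40 (1.26 to 1.54) over all cells, 1.76 within CD3-bearing cells, and 1.21 within CD3-bearing cells without the cell of each comparison that held most of its UMIs. All 6 CD3-bearing cells labelled CD40 KO had 5 or more Ccl5 UMIs. In WT 21 had 5 or more, 3 had 1 to 4 and 11 had 0. The part of that makeup in the ratios of Ccl5 and the granule genes was not tested. Ifng was less clear, with a median of 3.00 per 10000 UMIs in the library labelled CD40 KO and 1.25 in WT and a log2 ratio of 0.80 (0.18 to 1.40), which became −0.22 within CD3-bearing cells without the highest cell. Xcl1 turned its direction with the cells chosen: its log2 ratio was 1.16 over all cells and −1.22 (−3.16 to 0.25) within CD3-bearing cells. Of the 41 WT UMIs in CD3-bearing cells, 30 lay in the cell of 5401 UMIs, and without it the log2 ratio was 0.64 (−1.47 to 2.40). Of 7 measured effector cytokine genes 3 were higher (Tgfb1, Xcl1 and Ccl5) and 1 lower (Ltb) over all cells, and within CD3-bearing cells 2 were higher (Tgfb1 and Ccl5) and 4 lower (Ltb, Xcl1, Ccl3 and Ccl4). Ccl4 had a log2 ratio of 0.19 over all cells and −2.49 within CD3-bearing cells, with 10 UMIs in the library labelled CD40 KO and 247 in WT. The same WT cell of 5401 UMIs held 107 of the 247, and without it the log2 ratio was −1.71 (−2.80 to −0.79). Ccl3 had 0.67 over all cells, −1.20 without its highest cell, and −2.95 within CD3-bearing cells.

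**Figure D4:**
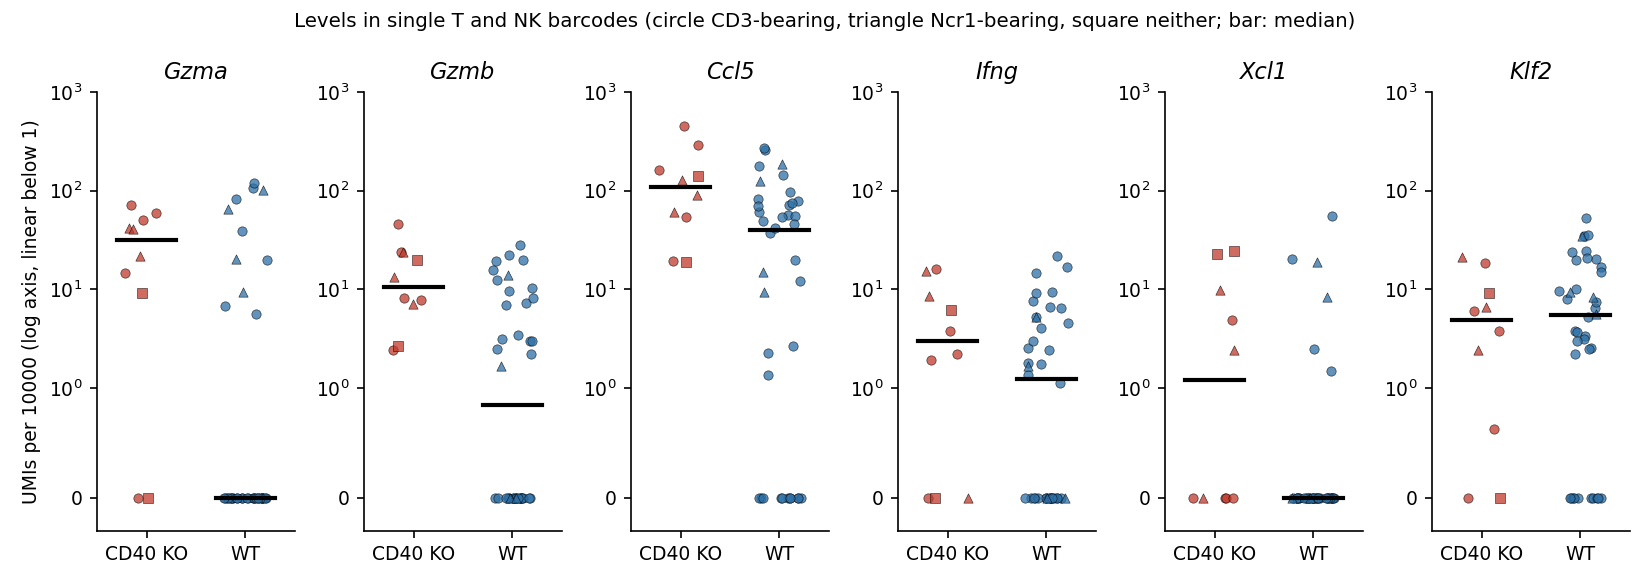
UMIs of 6 genes per 10000 UMIs in each T and NK cell without the 2 macrophage-carrying barcodes, with the 10 cells of the library labelled CD40 KO left of the 38 WT cells and a bar at each median. Ccl5 has its medians at 109 and 39.6 and Gzmb at 10.7 and 0.842, and the points of both libraries overlap in every panel.

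Receptors and the factor linked to interferon gamma production followed the cytotoxic genes. Il18rap was detected in 10 of 10 cells labelled CD40 KO and 12 of 38 WT cells, with 623 CPM and 148 CPM and a log2 ratio of 2.08 (1.39 to 2.78). Tbx21 was detected in 9 of 10 and 11 of 38, with 441 CPM and 133 CPM. Il12rb2, a chain of the IL-12 receptor, had 636 CPM and 200.1 CPM, and Serpinb9, the inhibitor that shields killer cells from their own granzyme B, had 584 CPM and 100.1 CPM. Within CD3-bearing cells Il18rap, Tbx21, Il12rb2 and Serpinb9 kept log2 ratios of 3.03, 1.63, 1.89 and 2.50. The cell of 8158 UMIs held 9 of the 18 Serpinb9 UMIs of CD3-bearing cells labelled CD40 KO. Without it the log2 ratio of Serpinb9 was 1.81 (0.42 to 3.12). Over 9 measured cytokine receptors 3 were higher, 1 (Il7r) was lower and the median log2 ratio was −0.07.

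NK receptor genes were higher in members labelled CD40 KO, where 3 of 11 members bore Ncr1 against 4 of 39 in WT, and the part of that makeup in the sums was not tested. The list summed to 3555 CPM in the library labelled CD40 KO and 1634 CPM in WT, a ratio of 2.18 (1.85 to 2.56). Of 6 measured genes 4 were higher (Klrb1c, Klrk1, Tyrobp and Fcer1g), with a median log2 ratio of 1.52. Klrb1c was in 6 of 10 cells labelled CD40 KO and 6 of 38 WT cells, with a log2 ratio of 2.38. Within CD3-bearing cells Klrb1c had 2 UMIs in the library labelled CD40 KO and 6 in WT, a log2 ratio of 0.56 (−2.78 to 3.04), and −0.38 with the macrophage-carrying barcodes in. Within CD3-bearing cells the list had a ratio of 2.07, but 1 of its 3 measured genes was called higher, Fcer1g. The cell of 8158 UMIs named above, which rests on Cd3d alone, held 15 of the 21 Fcer1g UMIs of these cells labelled CD40 KO, and without it the log2 ratio of Fcer1g was 0.12 (−1.43 to 1.41), against 1.63 with it.

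Some genes of T cell identity and costimulation were lower in members labelled CD40 KO. Of 4 measured coreceptor and costimulatory genes 2 were lower (Cd28 and Icos) and 0 higher, and of 10 lymphocyte transcription factors 2 were lower (Bcl11b and Ikzf2) and 2 higher (Tbx21 and Id2). These calls are over all cells, of which 5 of 10 labelled CD40 KO and 34 of 38 WT bore CD3, and the part of that makeup was not tested. Within CD3-bearing cells the log2 ratio was −1.21 for Cd28, −2.84 for Icos, 1.63 for Tbx21 and 0.63 for Id2. Tnfrsf9 and Cd8b1 did not share the direction of Cd28 and Icos. Over all cells Tnfrsf9 had 0.69, and 1.67 (0.82 to 2.54) without the WT cell that held 27 of its 49 WT UMIs. Within CD3-bearing cells Cd8b1 had 0.85, and 1.30 (0.42 to 2.15) without its highest cell. Both cells left out were WT cells, which raises the ratios. One WT cell held 20 of the 43 WT UMIs of Ikzf2, whose log2 ratio was −0.93 (−2.68 to 0.50) without it. Bcl11b was detected in 1 of 10 cells labelled CD40 KO and 22 of 38 WT cells, with 26.0 CPM and 376 CPM and a log2 ratio of −3.86 (−6.93 to −1.96), and −3.16 within CD3-bearing cells. Icos was in 3 of 10 and 15 of 38, with a log2 ratio of −2.95 (−5.26 to −1.33). Ltb, a membrane lymphotoxin, had 1 UMI in the library labelled CD40 KO and 40 UMIs in WT. Tox, a factor of chronically stimulated T cells, had 6 UMIs and 101 UMIs, and 0 UMIs in the CD3-bearing cells labelled CD40 KO. Ctla4 had 1 UMI and 66 UMIs, of which 46 were in 1 WT cell, and without that cell its log2 ratio was −3.05 (−8.42 to −0.40). The checkpoint list had 2 measured genes, Ctla4 and Tox, and both were lower, with a ratio of the sums of 0.165 (0.0867 to 0.289).

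The genes of the T cell receptor showed no common direction between the libraries. The other receptor complex genes summed to 1103 CPM in the library labelled CD40 KO and 1244 CPM in WT, a ratio of 0.887 (0.686 to 1.14), and within CD3-bearing cells 1.15 (0.864 to 1.51). Of 4 measured genes 1, Trdc, was lower, with 4 UMIs in the library labelled CD40 KO and 29 in WT and a log2 ratio of −1.41, and −0.67 (−2.70 to 0.95) without the WT cell that held 12 of the 29. Within CD3-bearing cells 1 of 3 was higher, Cd247, with a log2 ratio of 1.12, and 0.46 (−0.38 to 1.23) without its highest cell. The log2 ratio of Trac was −0.79. Of 14 measured signalling genes 1 was higher (Txk) and 4 lower (Lat, Prkcq, Themis and Cd2) over all cells. Within CD3-bearing cells the log2 ratio was −0.72 for Themis and −0.77 for Cd2, both under 2-fold, and 1.21 for Txk. The cell of 8158 UMIs held 8 of the 21 Txk UMIs of CD3-bearing cells labelled CD40 KO. Without it the log2 ratio of Txk was 0.82 (−0.21 to 1.75). The macrophage list, whose genes mark another cell type, had a ratio of 1.16 (0.917 to 1.45).

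**Figure D5:**
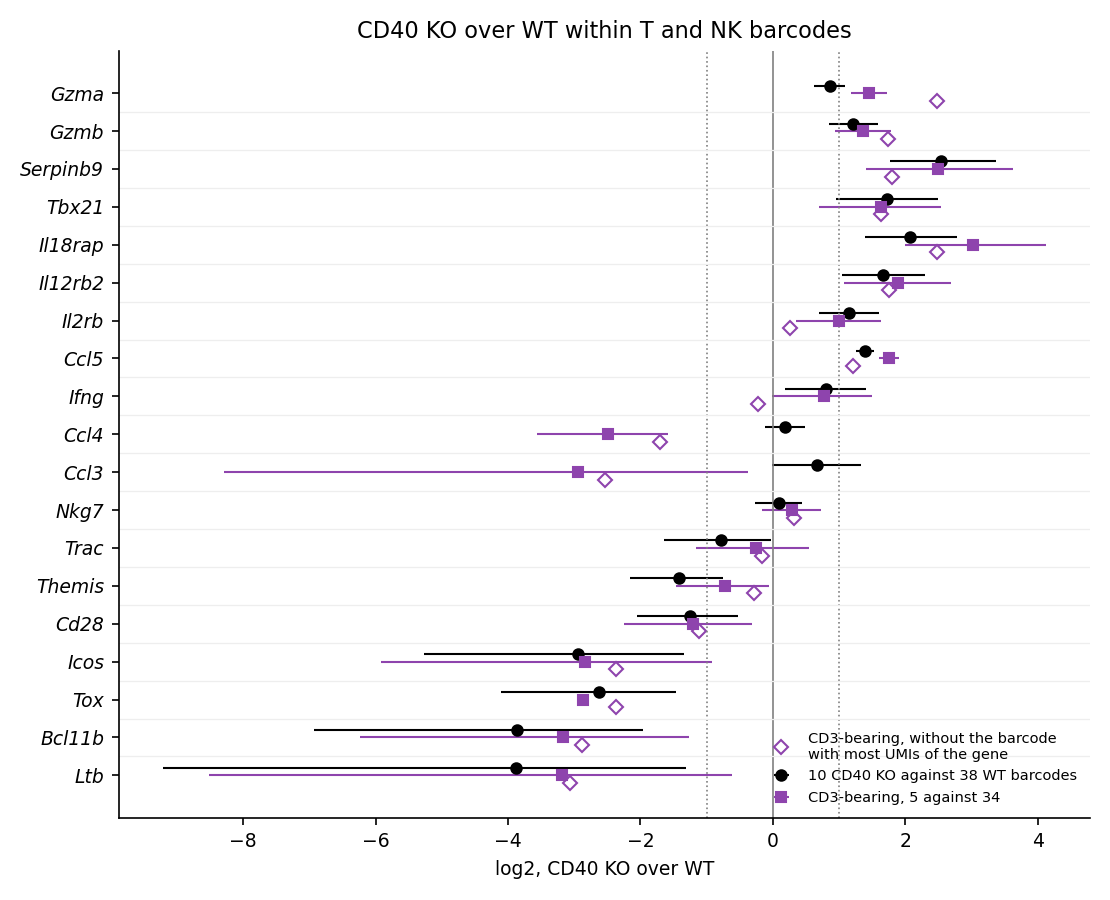
Log2 ratio of summed CPM, library labelled CD40 KO over WT, for 19 genes, over all T and NK cells without the 2 macrophage-carrying barcodes (10 against 38), within CD3-bearing cells (5 against 34) and within CD3-bearing cells without the cell that holds most UMIs of the gene; bars are exact 95% intervals and dotted lines mark 2-fold. Gzmb, Ccl5, Il18rap, Il12rb2, Tbx21 and Serpinb9 lie right of 0 in each set and Bcl11b, Icos, Cd28 and Ltb left of 0, while Ifng, Ccl3 and Ccl4 change sides, and Tox within CD3-bearing cells is a bound against 3 counts. For Gzma and Gzmb the cell left out was a WT cell, which moves the point right (Gzmb from 1.37 to 1.73).

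These contrasts rest on few cells. Of 98 named genes measured over 48 cells, 38 were past 2-fold, 27 of them still so without the cell that held most of their UMIs, and 11 of the 98 changed sign. The 98 include selecting genes such as Cd3g and genes named for their large ratios. Their share does not stand for all measured genes, of which 8.43% were higher and 10.5% lower. For Gzmb the cell left out was a WT cell, which moved the log2 ratio from 1.22 to 1.56. The 27 are no check for genes whose highest cell lay in the library with the lower level. The cells labelled CD40 KO were also deeper, which raises shares of cells with a UMI but not CPM, and the part of depth in those shares was not tested.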

How the data were processed

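The deposited matrices hold raw UMI counts of each gene in each barcode. Per the file headers the authors made them with Cell Ranger 7.0.1 from Chromium 3′ v3 libraries per the labels. The submitters' processing notes name Cell Ranger, STAR and the build mm10. Each matrix had 32285 genes. The sources used here do not say whether intron reads were counted.

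Members and gene lists were chosen with earlier results of these data known. Counts were summed over barcodes per library and scaled to CPM. Genes counted as measured had a mean of 10 CPM or more over both sides (members over other barcodes) or 30 UMIs in all (CD40 KO over WT); they were called by size at 2-fold, and the 9 genes of the rule were left out. Intervals at 95% are exact Poisson, Clopper-Pearson or conditional, and beside a count of 0 the limit is 3 counts. Shares were repeated at 1000 UMIs per barcode. No member was removed as a doublet, and Scrublet (scanpy 1.11.5), whose own threshold marked 0 barcodes in either library, was applied as an alternative at 0.8% per 1000 barcodes, which marked 503 in the library labelled CD40 KO and 614 in WT.

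The 185 named genes are the rule and gate genes, Cd40, Cd40lg, the 6 highest of each of 30 lists, the 25 of highest ratio over other barcodes at 100 CPM or more, and the 10 highest and 10 lowest between libraries in 5 or more members. Other genes in the text were named after their values were seen, among them the list members past 2-fold and those of single cells. Gene positions are from GENCODE vM21 (32158 of 32285 IDs matched). The scripts used pandas 2.3.3, scipy 1.17.1, numpy 2.4.6 and matplotlib 3.10.9 under Python 3.11.15. The ratios were checked on simulated data. Some genes in the lists are counted but not reported here by name.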

Additional observations from a re-analysis of the deposited data

Results flagged for a closer look

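The members of the libraries moved in opposite directions against the other barcodes for 6 genes, and the difference between the libraries was not tested. Areg had a log2 ratio of members over other barcodes of −2.31 in the library labelled CD40 KO and 1.65 in WT, and all 21 WT UMIs lay in the cell of 23399 UMIs. S100a8 had 2.28 in the library labelled CD40 KO and −5.19 in WT, with 165 of its 168 UMIs in the KO barcode that carried macrophage transcripts. Oasl1 had 1.11 in the library labelled CD40 KO and −2.54 in WT, and Tiam1 had 1.38 and −1.33. Apbb2 had −1.40 in the library labelled CD40 KO and 1.0 in WT, and Magi3 had −1.30 and 1.79. These ratios include the macrophage-carrying barcodes, of which the KO one held 43.1% of its library's member UMIs. The part of that barcode in Oasl1 and Tiam1 was not tested. Without those barcodes Magi3 had 2 UMIs in the library labelled CD40 KO and 28 in WT.

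Outside the members, 8 WT barcodes met the marker condition but exceeded the C1q limit, with a median of 26116 UMIs, against 0 in the library labelled CD40 KO.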

How the results depend on the processing

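Results were recomputed under 27 settings, of which 24 were planned and 3 were chosen after seeing the data. Of the main values 208 stayed within the tolerance and 34 moved, and of the single genes 451 stayed, 111 moved and 1 reversed. Genes higher in the members than in other barcodes numbered 1043 with no C1q limit and 3514 with no CPM minimum, and 661 were lower with no C1q limit. Of CD40 KO over WT, the genes counted as higher numbered 461, 166 and 1142 at minima of 20 UMIs, 50 UMIs and none, 164 without the macrophage-carrying barcodes and 151 within CD3-bearing cells without them. Genes lower numbered 416, 119 and 1333 at the same minima, and 440 with no C1q limit. The WT share set against C1q-rich barcodes was 0.627%, and CD3-bearing shares after thinning were 71.8% in WT and 64.0% over both libraries. In CPM over all members, the receptor complex list had 957, and 802 with C1q under 0.5%, 708 with no C1q limit, 1192 with equal weight per barcode and 1206 without the macrophage-carrying barcodes. NK receptors had 2420, and 2252 with C1q under 0.03%, 2998 under 0.5%, 3060 with no limit and 2150 without those barcodes. The cytotoxic list had 5058, and 4541 with C1q under 0.5%, 4081 with no limit, 5365 without Scrublet-marked barcodes, 5313 with equal weight and 5967 without the macrophage-carrying barcodes. Macrophage markers had 4834, and 5100 with C1q under 0.03%, 14620 under 0.5%, 16746 with no limit, 2826 without Scrublet-marked barcodes, 1960 with equal weight and 1286 without the macrophage-carrying barcodes. The log2 ratio of Klrb1c between the library labelled CD40 KO and WT was −0.38 within CD3-bearing cells. The causes of these changes were not tested.

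No paired analysis was possible because each genotype has 1 library. Few cells and shallow counts limit every value: genotype and library cannot be told apart, and fewer lymphocytes in the heart and fewer passing the gate cannot be told apart either.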
